A study of Mus musculus with 8 samples.

Results

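MHC class II presentation is described here through 8 genes of the 54532 in the table, taken by name and read in all 8 libraries. They are Ciita, the co-activator that switches class II genes on, H2-Aa, H2-Ab1 and H2-Eb1, which encode class II chains, and Cd74, which encodes the invariant chain. The others are H2-DMa and H2-DMb1, the subunits of the peptide editor H2-DM, and Ctss, which encodes the protease cathepsin S. All 8 genes passed the filter on low values, an FPKM (a fragment count set against gene length and library size) of at least 0.5 in at least 2 libraries, as did 15708 genes in all. Ciita passed it only through the in vivo libraries at 2 weeks, where it was highest, so a difference was built into its testing.

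The cells were MICFs, primary cardiac fibroblasts from C57BL/6 hearts after myocardial infarction (MI), infected with doxycycline-inducible lentiviruses for MGT (Mef2c, Gata4 and Tbx5), Myocd, Sall4 and eGFP. The labels give this genotype as MGTMyoS overexpression, and all groups carried it. In vivo cells were injected into the left ventricle of C57BL/6 mice at the time of coronary ligation, and in vitro cells stayed in culture. Cells positive for eGFP were sorted on day 7 or day 14, called 1 week and 2 weeks, with 2 libraries in each of the 4 groups. The mice received doxycycline in drinking water and, daily, the immunosuppressants tacrolimus, methylprednisolone and mycophenolate mofetil. The methods describe a reprogramming medium with doxycycline, the TGF-beta receptor inhibitor SB431542 and baricitinib, an inhibitor of the JAK kinases that act downstream of interferon receptors. Place, drugs and medium therefore cannot be told apart in any comparison of in vivo with in vitro cells. MICFs are a primary isolate, a clean-up with CD45 beads is described but not stated for these samples, and the gate was eGFP alone. By the paper's staining, unpurified MICFs were mostly cardiac fibroblasts, with macrophages as the next largest part and few endothelial cells. The mice were male and 8 weeks old at surgery, per the methods. Libraries held 12304242 to 14546904 fragments on genes, and no source ties a replicate to an animal or a well, so p-values measure the spread between these samples.

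Class II molecules carry peptides from the endosome to the cell surface, where CD4 T cells read them. Alpha and beta chains pair in the endoplasmic reticulum around the invariant chain. Proteases of the endosome, cathepsin S among them, then trim the invariant chain to the fragment CLIP, and H2-DM exchanges CLIP for other peptides. Dendritic cells and B cells make class II constitutively, whereas macrophages, endothelial cells and fibroblasts make more of it when interferon gamma, acting in part through IRF1, turns on Ciita. CIITA binds no DNA itself. It joins the RFX, CREB and NF-Y factors that sit on the X and Y boxes upstream of class II genes.

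The boxes can be read in the promoters of several of these genes. RefSeq windows of 250 bases before and 50 after a start (GRCm38.p6) matched 5 of the 8 genes by symbol: H2-Aa, H2-Eb1, H2-DMa, H2-DMb1 and Ctss. The stretches below show the letters of these boxes next to genes whose levels differ widely in the libraries. They read 5′ to 3′ on the strand of the gene, and capitals mark TGATTGG (Y box), GNAACTGAT (X box), TGACGTCA (the cAMP response element that CREB binds) or, in Ctss, GAAANNGAA (core of the interferon-stimulated response element), searched on both strands.
H2-Aa, chr17:34287864-34287973, minus strand: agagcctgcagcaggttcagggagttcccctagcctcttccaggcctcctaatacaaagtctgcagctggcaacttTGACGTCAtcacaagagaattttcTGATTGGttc
H2-Eb1, chr17:34305717-34305826, plus strand: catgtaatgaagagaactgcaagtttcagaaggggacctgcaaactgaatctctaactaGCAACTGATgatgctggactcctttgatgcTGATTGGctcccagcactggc
H2-DMb1, chr17:34153041-34153150, plus strand: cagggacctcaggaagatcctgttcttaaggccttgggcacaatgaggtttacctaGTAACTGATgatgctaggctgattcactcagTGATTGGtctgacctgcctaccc
Ctss, chr3:95526636-95526785, plus strand: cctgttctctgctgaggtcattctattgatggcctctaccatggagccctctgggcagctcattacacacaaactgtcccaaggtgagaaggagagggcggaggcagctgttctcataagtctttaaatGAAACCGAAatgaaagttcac

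The Y box letters began 50 bases upstream of the start in H2-Aa, 61 in H2-Eb1 and 63 in H2-DMb1. The X box letters began 30 bases before the Y box in H2-Eb1 and 31 in H2-DMb1, so the spacing of the pair was nearly the same in a gene that passed the test below at both weeks and in one that passed it at neither. The H2-Aa window held the cAMP response element 74 bases upstream but no exact match to the X box letters. The Ctss window held its GAAACCGAA match 21 bases upstream. The search allowed no changed letter, so an X or Y box spelled otherwise went unmarked, in H2-Aa as elsewhere. None of the 5 motifs searched, which also included TTCNNNGAA (the GAS element), was found in these exact letters in the H2-DMa windows. This does not show that the boxes are absent there. Of all 32851 windows, 7.82% held the Y box letters, 0.779% the X box, 1.79% the cAMP response element, 8.30% the GAS element and 8.56% the response element core. The windows of H2-Eb2, H2-DMb2, H2-Oa and H2-Ob, class II genes of low level here, held the Y box letters too, so these letters were present at high and low genes alike.

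At 1 week, 5 of the 8 genes were higher in vivo and 0 lower (Ctss, Cd74, H2-Aa, H2-Ab1 and H2-Eb1), where 12.9% of all tested genes changed, 7.79% higher and 5.07% lower. At 2 weeks 4 of 8 were higher and 0 lower, where 17.1% of genes changed, 9.02% higher and 8.05% lower. At an unadjusted p under 0.05 the counts were 7 higher and 0 lower at 1 week and 6 and 0 at 2 weeks, where 25.4% and 27.9% of all tested genes were higher and 25.2% and 28.6% lower. Limma voom on recovered fragments called 6 and 0, then 5 and 0, where it called 8.51% and 9.82% of all genes higher and 5.82% and 8.65% lower. The call needs a log2 fold change beyond 1 in size and an adjusted p (Benjamini-Hochberg, over all tested genes) below 0.01, by limma on log2(FPKM + 0.1). This scale understates the change of low genes, Ciita most of all. The 8 genes had a median log2 fold change of 2.75 after 1 week and 2.02 after 2 weeks, against -0.0058 and -0.0034 over all tested genes. These medians, and the unadjusted and voom counts, include Ciita, for which the filter built in a difference. Among the other genes the middle value was 3.84 (H2-Ab1) at 1 week and 2.14 (Cd74) at 2 weeks. On this scale the 3 chains and the invariant chain had the largest of these differences, although in mean FPKM at 2 weeks Ciita (5.86-fold) was above Cd74 (4.40-fold), Ctss passed at 1 week alone, and neither gene of H2-DM passed at either week.

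**Figure D1:**
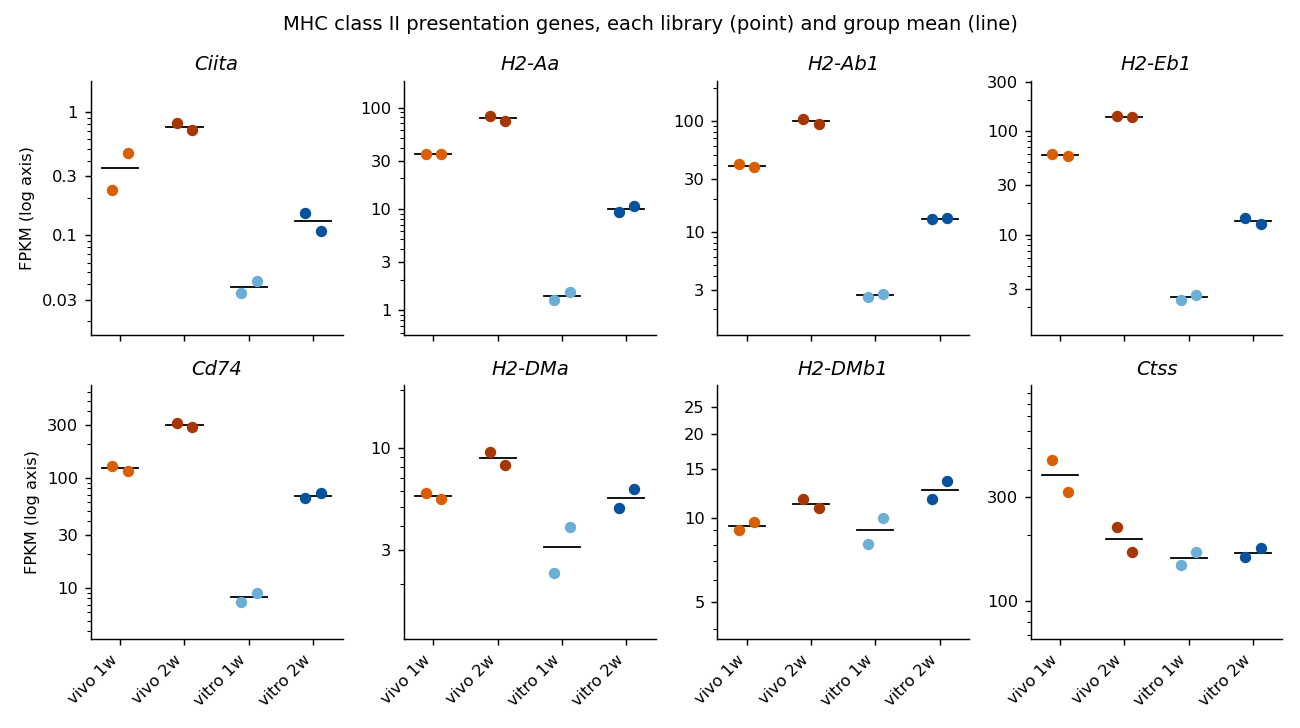
FPKM (vertical log axis, a separate scale for each gene) of the 8 genes in every library, by group: each point is 1 library and each line the mean of 2. H2-Aa, H2-Ab1, H2-Eb1, Cd74 and Ciita share 1 order of the groups, whereas H2-DMb1 is between 8.05 and 13.6 FPKM in all 8 libraries.

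Ciita (ENSMUSG00000022504, chr16:10480059-10528418, GRCm38) was the lowest of the 8 genes. It was at 0.233 and 0.467 FPKM in vivo at 1 week, 0.808 and 0.712 in vivo at 2 weeks, 0.0341 and 0.0421 in vitro at 1 week, and 0.152 and 0.108 in vitro at 2 weeks. Each in vivo library was above each in vitro library, at both weeks. These levels rest on few fragments per library, 26 to 87 from the mice, 5 and 6 from culture at 1 week, and 14 and 20 from culture at 2 weeks. The means were 9.18-fold higher in vivo at 1 week and 5.86-fold at 2 weeks.

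By limma Ciita differed by 1.65 ± 0.46 (log2, SE) at 1 week (adjusted p = 0.0248) and by 1.91 ± 0.46 at 2 weeks (adjusted p = 0.0119), short of the threshold. With both weeks in 1 model and week as a term, Ciita was higher in vivo by 1.78 ± 0.34 (adjusted p = 0.00333), 1 of the 5 of 8 genes that were higher there with 0 lower (4 of the 7 others), where 15.4% of genes changed, 8.63% higher and 6.74% lower. Its call over both weeks was lost without in vivo 1 week replicate 2 (adjusted p = 0.0144), in vivo 2 weeks replicate 1 (0.0138) or 2 (0.0130), or in vitro 2 weeks replicate 2 (0.0111). On the recovered fragments, with limma voom, Ciita was higher at each week (3.04, adjusted p = 0.000951, and 2.53, adjusted p = 0.000185). The antisense gene Dexi overlaps 25888 bases of Ciita and was at 4.13 to 8.40 FPKM in the 8 libraries. The strand used in counting is not given in the sources used here, so fragments of the pair may not be separated.

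H2-Aa, H2-Ab1 and H2-Eb1 lie side by side on chromosome 17 and encode the I-A alpha, I-A beta and I-E beta chains. H2-Aa (ENSMUSG00000036594, chr17:34282744-34287827) was at 34.6 and 35.1 FPKM in vivo at 1 week, 83.3 and 74.7 in vivo at 2 weeks, 1.25 and 1.50 in vitro at 1 week, and 9.30 and 10.8 in vitro at 2 weeks. The in vivo libraries at 2 weeks were the highest and the in vitro libraries at 1 week the lowest, with no overlap between any of the 4 groups. H2-Aa was higher in vivo by 4.57 ± 0.11 (log2, SE) at 1 week (adjusted p = 9.1e-07) and by 2.97 ± 0.11 at 2 weeks (adjusted p = 3.47e-06), which are 25.4-fold and 7.88-fold in mean FPKM. Among all tested genes its log2 fold change was the 69th from the top at 1 week and the 360th at 2 weeks.

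H2-Ab1 (ENSMUSG00000073421, chr17:34263209-34269418) was at 41.0 and 38.5 FPKM in vivo at 1 week, 105 and 95.2 in vivo at 2 weeks, 2.58 and 2.78 in vitro at 1 week, and 13.1 and 13.4 in vitro at 2 weeks. The groups were in the same order as for H2-Aa and again did not overlap. H2-Ab1 was higher in vivo by 3.84 ± 0.07 at 1 week (adjusted p = 3.5e-07) and by 2.91 ± 0.07 at 2 weeks (adjusted p = 8.87e-07).

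H2-Eb1 (ENSMUSG00000060586, chr17:34305877-34316199) was at 59.9 and 57.8 FPKM in vivo at 1 week, 138 and 136 in vivo at 2 weeks, 2.36 and 2.60 in vitro at 1 week, and 14.4 and 12.7 in vitro at 2 weeks. At each week its in vivo libraries stood above those of the other 2 chains. H2-Eb1 was higher in vivo by 4.51 ± 0.08 at 1 week (adjusted p = 2.54e-07) and by 3.33 ± 0.08 at 2 weeks (adjusted p = 8.18e-07). Its partner, the I-E alpha gene, is not functional in C57BL/6 mice, and the table, which holds it as H2-Ea-ps, gave it 0 fragments in all 8 libraries. The H2-Eb1 transcript was thus measured without a transcript for the chain that pairs with it.

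The ratio of the chains was not the same in every group. H2-Aa was 0.844 and 0.912 times H2-Ab1 in vivo at 1 week and 0.795 and 0.784 times in vivo at 2 weeks. It was 0.484 and 0.540 times in vitro at 1 week and 0.711 and 0.803 times in vitro at 2 weeks. H2-Aa was thus lowest against its partner chain in the cultured cells at 1 week, where both were lowest. H2-Eb1 was 1.32 to 1.50 times H2-Ab1 in vivo and 0.915 to 1.10 times in vitro.

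Cd74 (ENSMUSG00000024610, on chromosome 18) had a higher level than any of the 3 chains in every library. It was at 129 and 116 FPKM in vivo at 1 week, 313 and 289 in vivo at 2 weeks, 7.42 and 8.88 in vitro at 1 week, and 65.2 and 71.7 in vitro at 2 weeks. The 4 groups did not overlap and kept the order of the chains. Cd74 was higher in vivo by 3.89 ± 0.10 at 1 week (adjusted p = 1.14e-06) and by 2.14 ± 0.10 at 2 weeks (adjusted p = 1.02e-05). Cd74 was 2.88 to 3.19 times H2-Ab1 in both in vivo groups and in vitro at 1 week, and 4.99 and 5.36 times in vitro at 2 weeks.

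H2-DM, which exchanges peptides on the assembled class II molecule, showed smaller differences than the chains it acts on. H2-DMa (ENSMUSG00000037649, chr17:34135182-34139101) was at 5.88 and 5.52 FPKM in vivo at 1 week, 9.56 and 8.17 in vivo at 2 weeks, 2.30 and 3.96 in vitro at 1 week, and 4.93 and 6.18 in vitro at 2 weeks. The in vivo libraries were above the in vitro libraries of the same week, but the difference missed the threshold, at 0.89 ± 0.24 at 1 week (adjusted p = 0.0233, 95% interval 0.32 to 1.47) and 0.67 ± 0.24 at 2 weeks (adjusted p = 0.0568, 0.09 to 1.24). Without in vitro 1 week replicate 2, the higher of that pair, H2-DMa passed at 1 week (1.27, adjusted p = 0.00454).

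H2-DMb1 (ENSMUSG00000079547, chr17:34153072-34160230) was at 9.03 and 9.67 FPKM in vivo at 1 week, 11.6 and 10.9 in vivo at 2 weeks, 8.05 and 9.96 in vitro at 1 week, and 11.6 and 13.6 in vitro at 2 weeks. The libraries of both places overlapped at 1 week, and the log2 fold change was 0.06 ± 0.12 there (95% interval -0.23 to 0.35) and -0.16 ± 0.12 at 2 weeks (-0.45 to 0.13). The sign at 1 week turned without the scaling between libraries (-0.28), and this scaling shifted the median of all genes by a like amount, to -0.343. The near-identical gene H2-DMb2 was at 0.117 to 0.570 FPKM, and how the counting divided fragments between the pair is uncertain. With the chains far lower in culture, H2-DMa was 0.0857 to 0.143 times H2-Ab1 in vivo but 0.890 and 1.42 times in vitro at 1 week.

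Ctss (ENSMUSG00000038642, chr3:95526786-95556403), the protease, was abundant in all 8 libraries and had a time course of its own. It was at 441 and 317 FPKM in vivo at 1 week, 219 and 168 in vivo at 2 weeks, 147 and 169 in vitro at 1 week, and 159 and 175 in vitro at 2 weeks. In vivo libraries were above in vitro ones at 1 week and overlapped them at 2 weeks. Ctss was higher in vivo by 1.25 ± 0.18 at 1 week (adjusted p = 0.00183), and its log2 fold change at 2 weeks was 0.20 ± 0.18 (95% interval -0.23 to 0.64), a sign that turned without the scaling between libraries (-0.13) and with quantile normalization (-0.07). The median of all genes moved to -0.330 and -0.0287 under these at 2 weeks, and to -0.343 and -0.0631 at 1 week. The call at 1 week was lost under both of these settings (0.90 and 0.69), with the 1-week libraries alone (adjusted p = 0.0116), and without in vivo 1 week replicate 1 (adjusted p = 0.0124), in vitro 1 week replicate 1 (0.0178) or 2 (0.0107). Against Cd74, whose product it cleaves, its level ranged widely, since Ctss was 19.8 and 19.0 times Cd74 in vitro at 1 week and 0.699 and 0.580 times in vivo at 2 weeks.

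**Figure D2:**
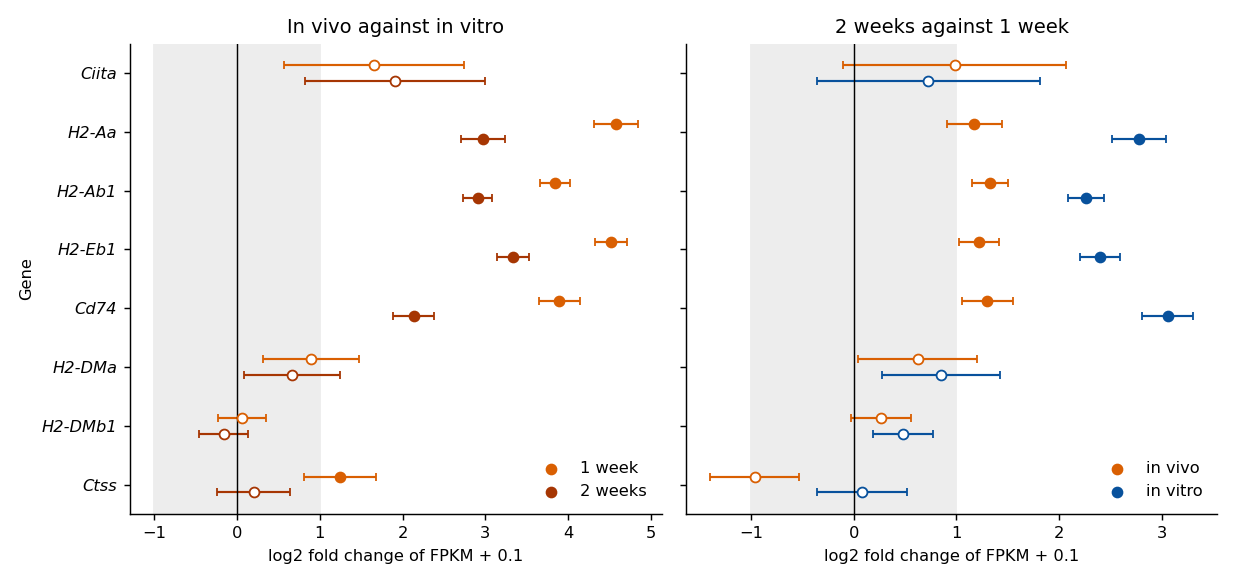
Log2 fold changes of FPKM + 0.1 (horizontal axis) with 95% intervals from limma for the 8 genes, in vivo against in vitro at each week (left) and 2 weeks against 1 week at each place (right). Filled points passed the threshold and open points did not, the grey band spans an absolute value of 1, and the chains and Cd74 rose further with time in vitro (2.26 to 3.06) than in vivo (1.18 to 1.33).

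The same 4 genes rose with time at both places. From 1 to 2 weeks in vivo, 4 of the 8 genes were higher and 0 lower, where 2.18% of genes changed, 1.23% higher and 0.949% lower. At an unadjusted p under 0.05, 5 were higher and 1 (Ctss) lower (16.3% and 15.3% of all genes), and voom called 4 and 0 (1.92% and 1.29%). The log2 fold changes were 1.18 ± 0.11 for H2-Aa, 1.33 ± 0.07 for H2-Ab1, 1.22 ± 0.08 for H2-Eb1 and 1.30 ± 0.10 for Cd74 (adjusted p = 0.00166, 0.00054, 0.000687 and 0.00108). Ctss went the other way, from a mean of 379 to 193 FPKM (-0.96 ± 0.18, adjusted p = 0.0167), short of the threshold. All 4 calls were lost without in vivo 1 week replicate 1 (1.17 to 1.38, adjusted p from 0.0101 to 0.0247), and 2 remained called without in vivo 1 week replicate 2. H2-Aa was also lost without in vivo 2 weeks replicate 1 (1.10, adjusted p = 0.0116).

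In culture the rise was steeper as a fold change, from a lower start, though smaller in FPKM. From 1 to 2 weeks in vitro 4 of the 8 genes were higher and 0 lower, where 3.81% of genes changed, 2.76% higher and 1.05% lower. At an unadjusted p under 0.05, 6 were higher and 0 lower (20.8% and 17.4% of all genes), and voom called 4 and 0 (3.76% and 1.74%). H2-Aa rose by 2.78 ± 0.11, H2-Ab1 by 2.26 ± 0.07, H2-Eb1 by 2.40 ± 0.08 and Cd74 by 3.06 ± 0.10 (adjusted p from 5.58e-05 to 8.88e-05), and mean FPKM rose 7.30-, 4.94-, 5.46- and 8.40-fold. Cd74 ranked 40th from the top of all tested genes. Even so, each in vitro library at 2 weeks was below each in vivo library at 1 week for these 4 genes.

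For the chains and Cd74, transplanted and cultured cells were thus closer in ratio at 2 weeks than at 1 week, though further apart in FPKM. Cd74 means were 122 FPKM in vivo against 8.15 in vitro at 1 week, and 301 against 68.5 at 2 weeks. The interaction contrast was -1.60 ± 0.16 for H2-Aa, -1.18 ± 0.12 for H2-Eb1 and -1.76 ± 0.15 for Cd74 (adjusted p = 0.00367, 0.00366 and 0.00338), so 3 of the 8 genes were lower by it, where 1.73% of genes changed, 0.573% higher and 1.15% lower. H2-Ab1 was at -0.93 ± 0.11 (adjusted p = 0.00549), under the fold limit, and Ctss at -1.04 ± 0.26 (adjusted p = 0.0518). All 3 calls were lost with each of the 8 libraries left out in turn, with values from -1.89 to -1.09 and adjusted p from 0.0109 to 0.0293.

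**Figure D3:**
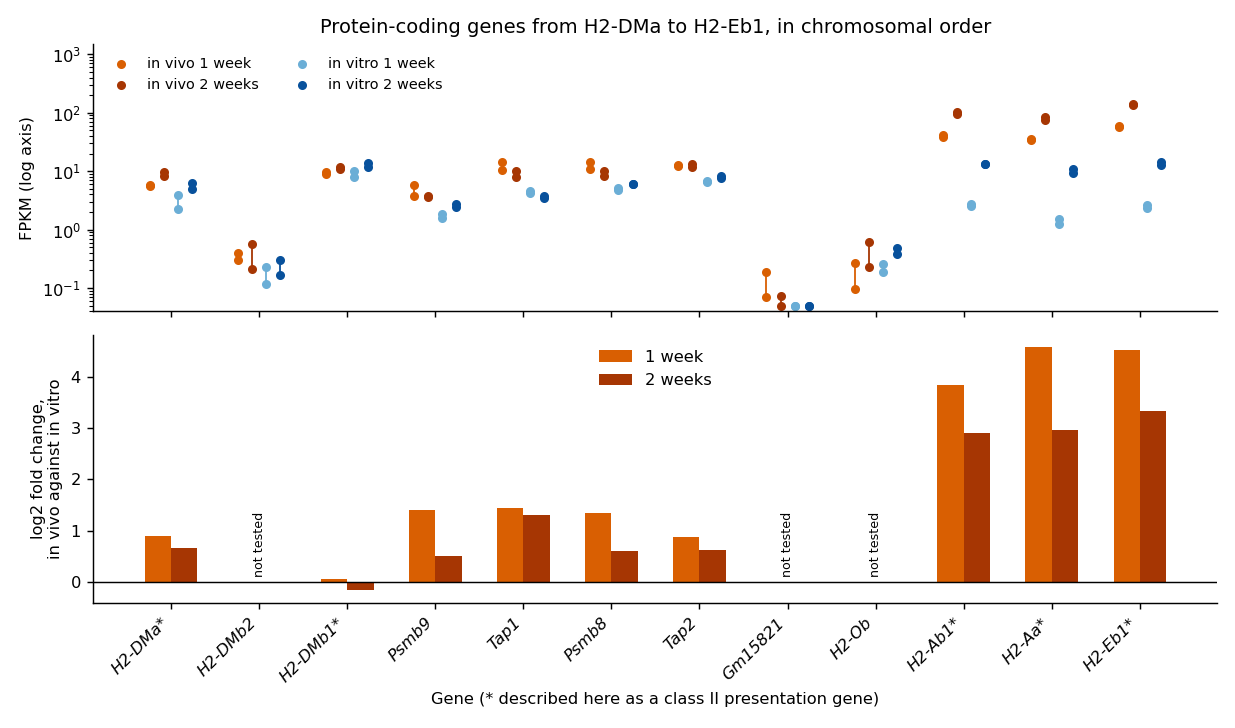
The 12 protein-coding genes from H2-DMa to H2-Eb1 on chromosome 17, in order, with FPKM of both libraries of each group (top, log axis, values under 0.05 drawn at 0.05) and log2 fold change of in vivo against in vitro cells at each week (bottom). The chains at the right differ by 2.91 to 4.57, whereas the genes for class I peptide supply in the middle differ by 0.50 to 1.44.

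The 5 class II genes on chromosome 17 lie within 181018 bases (chr17:34135182-34316199), which hold 12 protein-coding genes, 9 of them tested. The genes between H2-DMb1 and H2-Ab1 include Psmb8 and Psmb9, subunits of the immunoproteasome, and Tap1 and Tap2, which carry peptides to class I molecules. They were named for this position. Tap1 was higher in vivo at 1 week (1.44, adjusted p = 0.000695) and at 2 weeks (1.31, adjusted p = 0.000841). Psmb8 (1.36) and Psmb9 (1.40) were higher at 1 week, Psmb9 not without in vitro 1 week replicate 1 (adjusted p = 0.0182) or 2 (0.0121), and Tap2 was at 0.89, under the fold limit. H2-Ob, which also lies there, and H2-DMb2, between H2-DMa and H2-DMb1, were at 0.0974 to 0.618 FPKM in the 8 libraries.

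Other genes of class II expression were read from lists. Beside the counts of these lists, 7.79% of all tested genes were higher in vivo at 1 week and 5.07% lower. At 2 weeks these shares were 9.02% and 8.05%. Of 8 further class II genes and modulators, 7 were measured by name and 3 tested. H2-Eb2 and H2-Oa were at no more than 0.260 FPKM in any library. Cd83, which holds class II at the surface, was lower in vivo at 2 weeks (-2.06, adjusted p = 0.000104), having risen in vitro by 1.91 (adjusted p = 0.000837). Of the 10 transcription factors and co-activators of class II genes, all tested, 0 changed at either week by limma or by voom. At an unadjusted p under 0.05, 4 were higher and 1 lower at 1 week, and 3 and 1 at 2 weeks. Of all tested genes, 25.4% were higher and 25.2% lower by this rule at 1 week, and 27.9% and 28.6% at 2 weeks. Rfx5, a subunit of the RFX complex, was at 2.22 to 3.45 FPKM, and its in vivo difference was -0.22 (log2) at 1 week and -0.28 at 2 weeks.

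Of 12 genes from interferon gamma to Ciita, 11 were tested. The test called 4 of them at 2 weeks, of which 3 were lower in vivo, where 17.1% of all tested genes changed, 8.05% lower. Irf1 was at 41.1 and 39.6 FPKM in vivo at 1 week, 35.0 and 29.0 in vivo at 2 weeks, 27.1 and 29.8 in vitro at 1 week, and 67.7 and 73.0 in vitro at 2 weeks. Irf1 was thus highest in the cultured cells at 2 weeks, by 1.30 over 1 week (adjusted p = 0.000506), and the chains rose in culture too. At 2 weeks Irf1 was lower in vivo (-1.14, adjusted p = 0.000131), opposite to the chains at that week. Its in vivo difference at 1 week was 0.50, of the same sign as the chains but under the fold limit. At 2 weeks Il10 (-1.75, adjusted p = 0.00539) and Irf8 (-1.11, adjusted p = 0.000831) were lower in vivo, and Socs1, which restrains cytokine signalling, was higher (1.11, adjusted p = 0.00376). Without in vivo 2 weeks replicate 2, Irf8 was at -0.94, under the fold limit. The calls of Il10 and Socs1 are weak, each lost without any of 6 and of 7 of the 8 libraries, with adjusted p up to 0.0397 and 0.0251. Ifng was not tested, at 0 to 0.280 FPKM.

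Of 9 class I genes, 6 were higher in vivo at 1 week and 2 at 2 weeks, where 7.79% and 9.02% of all tested genes were. Of the 9, 0 were lower by limma, by voom or at an unadjusted p under 0.05. Nlrc5, the class I counterpart of Ciita, was higher by 1.88 at 1 week (adjusted p = 0.00108) and 2.16 at 2 weeks (adjusted p = 0.000453). Its call at 1 week was lost without in vivo 1 week replicate 1 (adjusted p = 0.0126) or in vitro 1 week replicate 2 (0.0106). Of 10 endosomal processing genes, 0 changed at 1 week by limma or voom. At an unadjusted p under 0.05, 5 were higher and 4 lower at 1 week, where 25.4% and 25.2% of all tested genes were. At 2 weeks 1, the protease gene Ctsb, was lower in vivo (-1.19, adjusted p = 0.000256). By the unadjusted rule 3 were higher and 7 lower at 2 weeks, where 27.9% and 28.6% of all tested genes were. Ifi30, the thiol reductase of the endosome, was at 0.38 at both weeks, and Cst3, an inhibitor of cathepsins, was at 0.55 and 0.87, under the fold limit. From 1 to 2 weeks in vivo Cst3 was called higher (1.002), as were 1.23% of all tested genes. This call was lost without the filter on low values and without the scaling between libraries (0.96). Of 6 genes for costimulation, 5 were tested. Cd86, a ligand of CD28, was lower in vivo at 2 weeks (-1.99, adjusted p = 0.000572), where it was at 10.5 and 16.4 FPKM in vitro against 3.65 and 2.84 in vivo. Cd80, another ligand, was at 0.92 and 0.66, and passed at 1 week without in vivo 1 week replicate 1 (1.07) or in vitro 1 week replicate 2 (1.01).

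Markers of the cells that could carry class II were read beside these levels. In bulk samples fewer cells of a type and less RNA per cell cannot be told apart. Macrophage RNA was present in all 8 libraries, and the summed FPKM of 15 macrophage and monocyte markers was lower in vivo (2896 to 3340 at 1 week, 2103 to 2528 at 2 weeks) than in vitro (5521 to 6282 and 5194 to 6368). Lyz2 made up much of these sums, and without it they were 1565 to 1887 and 1128 to 1327 in vivo against 1947 to 2268 and 2272 to 2657 in vitro. At 1 week 2 of 15 were higher in vivo and 1 lower, where 7.79% and 5.07% of all tested genes were. At 2 weeks 1 was higher and 7 lower, Cd68 (-1.74) and Lyz2 (-1.61) most, where 9.02% and 8.05% of all were. Counted at an unadjusted p under 0.05, 2 were higher and 7 lower at 1 week, where 25.4% and 25.2% of all were. At 2 weeks this rule gave 2 higher and 11 lower, against 27.9% and 28.6%. Set against Csf1r, the receptor that macrophages depend on, Cd74 was 1.80 and 1.80 times its level in vivo at 1 week, 5.32 and 6.04 times in vivo at 2 weeks, 0.128 and 0.117 times in vitro at 1 week, and 0.719 and 0.720 times in vitro at 2 weeks. Ccr2, the receptor of recruited monocytes, was at 6.23 and 3.33 FPKM in vivo at 1 week, 2.24 and 2.73 in vivo at 2 weeks, 0.0192 and 0.0792 in vitro at 1 week, and 0 in both in vitro libraries at 2 weeks. With 3 fragments per library as the floor, at 2 weeks its in vivo mean was at least 76.8-fold higher. Fcgr1 was higher in vivo at 1 week (2.61, adjusted p = 9.03e-05).

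**Figure D4:**
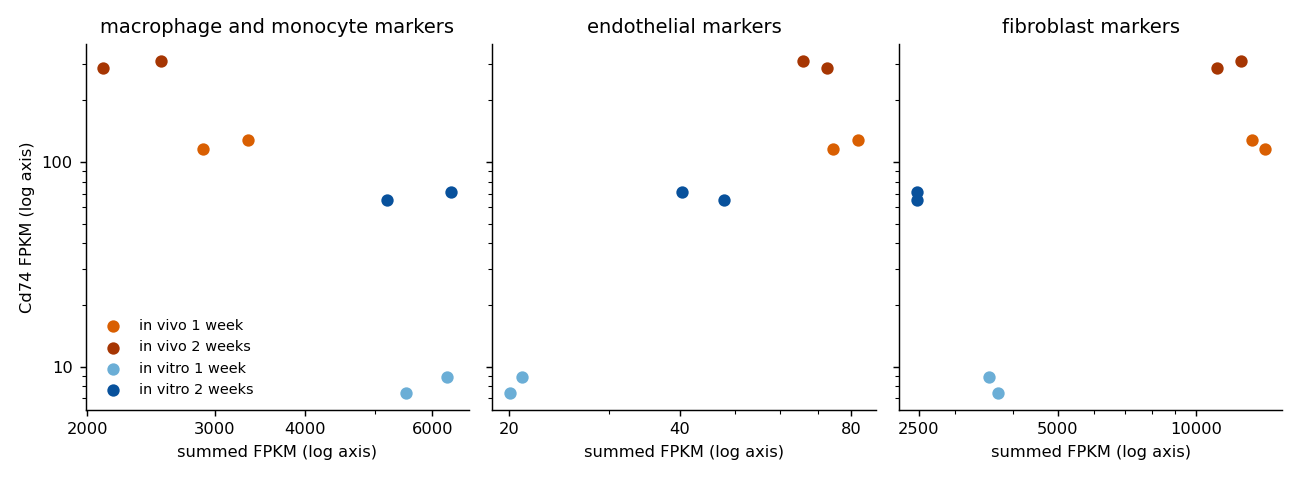
Cd74 FPKM (vertical log axis) against the summed FPKM (horizontal log axis) of macrophage and monocyte, endothelial and fibroblast markers, 1 point per library, coloured by group. The macrophage sums are lower in vivo, where Cd74 is higher, and the endothelial sums are higher in vivo and rise in vitro from 20.1 to 21.1 at 1 week to 40.4 to 47.8 at 2 weeks.

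The summed FPKM of 9 dendritic cell markers was 5.16 to 8.79 in all libraries, and the defining gene Flt3 was at 0 to 0.244. Without Zbtb46, the marker with the highest level, the sums at 1 week were 3.61 to 4.83 in vivo and 3.32 to 4.58 in vitro. At 2 weeks they were 4.34 to 6.58 in vivo and 2.95 to 4.26 in vitro. Low as they were, Flt3 at 2 weeks and Clec9a at 1 week were above in vitro levels in vivo. Flt3 was at 0.244 and 0.117 FPKM against 0 and 0.0238, and Clec9a at 0.389 and 0.536 against 0.0789 and 0.0610. Xcr1 went the other way at 1 week, with an in vitro mean of 0.162 FPKM against 1 and 2 fragments in vivo. With 3 fragments per library as the floor, this was at least 2.96-fold. The part of these markers in the class II levels was not tested. Of the 6 tested, Cd209a was higher in vivo at 2 weeks, at 1.68 and 0.686 FPKM against 0 in both in vitro libraries (at least 8.56-fold in mean). It passed the filter through that in vivo group alone, which built in the direction, and its call was lost without in vivo 2 weeks replicate 1 (adjusted p = 0.0167) or in vitro 2 weeks replicate 1 (0.0132) or 2 (0.0143). Xcr1, which passed the filter through the in vitro libraries of 2 weeks alone and so had its direction built in too, was lower in vivo there (-2.43, adjusted p = 0.00874), a call lost without any of 5 of the 8 libraries (adjusted p up to 0.061). B cell sums were 9.21 to 12.5 at 1 week and 21.8 to 27.7 at 2 weeks over both places, most of it Ighm. Without Ighm they were 2.65 to 3.10 in vivo and 0.884 to 1.69 in vitro at 1 week. At 2 weeks they were 1.10 to 1.36 in vivo and 1.29 to 1.70 in vitro. Ms4a1 and Pax5 were at no more than 0.0701 and Cd79a at no more than 0.932. The part of B cell markers in the class II levels was not tested. Of the 4 tested B cell markers, Cd22 was lower in vivo at 2 weeks (-2.14). Cd79b, a subunit of the B cell receptor, was at 1.19 and 0.858 FPKM in vivo at 1 week against 0 and 0.140 in vitro, which missed the threshold by limma (2.84, adjusted p = 0.0140), and voom called 1 B cell marker higher there. The T cell genes Cd3e, Cd3d and Cd3g were at no more than 0.105 FPKM, and Cd4, of 2 tested, was lower in vivo at 2 weeks (-2.04), a call lost without any of 7 libraries (adjusted p up to 0.0579).

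The summed level of endothelial markers was above that in vitro in each in vivo library, as for the chains, but unlike them it was not higher at 2 weeks than at 1 week in vivo. The sum over 7 genes was 74.6 to 82.4 in vivo at 1 week, 66.0 to 72.6 in vivo at 2 weeks, 20.1 and 21.1 in vitro at 1 week, and 40.4 and 47.8 in vitro at 2 weeks. At 1 week 6 of 7 were higher in vivo, with Emcn (3.28) and Pecam1 (2.96) the most, and at 2 weeks 3 of 7 were, among them Vwf (3.40) and Tie1 (1.63). Of all tested genes, 7.79% were higher at 1 week and 9.02% at 2 weeks. Fibroblast markers were also higher in vivo, 6 of 11 at 1 week and 7 of 11 at 2 weeks, led by Postn (3.46 and 3.56), Lum at 1 week (2.56) and Col1a1 at 2 weeks (3.004). Unlike the chains, their sums were lower at 2 weeks than at 1 week at both places. They went from 13227 to 14087 to 11079 to 12470 in vivo, and from 3551 to 3714 to 2477 to 2482 in vitro. Without Col1a1 the in vivo sums of the weeks overlapped (9095 to 9379 and 8317 to 9209). The part of these markers in the class II levels was not tested.

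The 10 protein-coding genes whose log2 levels over the 8 libraries were most like the mean of H2-Aa, H2-Ab1, H2-Eb1 and Cd74 had a Pearson r of 0.991 to 0.997, in libraries that fall into 4 groups. Among them were Nudt4, Vwa1, Zfp185, Sparcl1, Clec14a, Cyp2d22, Ramp2, Nsmf and Gm10382. Sparcl1, a matricellular protein gene, had group means of 129 and 170 FPKM in vivo and 24.9 and 69.9 in vitro, in order of week. Clec14a, an endothelial lectin gene, had 2.59 and 4.68 in vivo and 0.202 and 1.28 in vitro. The 10 most like Ciita (r of 0.987 to 0.995) were Ppp1r16a, Gsdme, Pxdc1, Tle3, Pdzd2, Col2a1, C3, Dnajc3, Ltbp4 and Pcdhb11. C3, the central complement component, had 238 and 474 FPKM in vivo and 54.3 and 94.1 in vitro. Neither list held another gene of the class II lists, and each was chosen by its likeness.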

How the data were processed

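The authors deposited FPKM for each gene and library, made by their sequencing provider. The submitters' processing notes name CASAVA, HISAT2 2.0.5 and mm10 without their roles, and the counting tool is not given in the sources used here. Gene starts and ends matched GENCODE vM21 on GRCm38 for 98.3% of 54495 shared identifiers. FPKM times gene length gave whole fragments (within 0.02) for 100% of values. The library size behind the FPKM was 0.863 to 0.915 times the fragment total for in vivo libraries and 1.09 to 1.15 times for in vitro ones, so a scaling between libraries is included. Fragment counts varied between replicates of a group by more than counting error. The mean chi-square per gene between replicates was 5.73 in vivo at 1 week, 9.93 in vivo at 2 weeks, 4.95 in vitro at 1 week and 4.50 in vitro at 2 weeks.

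All 8 libraries entered limma 3.58.1 (R 4.3.3) with moderated variances and an intensity trend on log2(FPKM + 0.1), 4 groups as means, two-sided, adjusted over 15708 genes. The "both weeks" fit had week as a covariate. The authors used DESeq2, which needs counts. The procedure was tested on simulated data. Alternatives were other pseudocounts, filters and scalings, no trend, voom on fragments, protein-coding genes, the libraries of each week alone, a replicate block and each library left out. The members and gene lists were chosen with earlier results of these data known. The genes named beside the 8 are, per list and week, the 2 changed genes with the largest fold in each direction, a set of lineage and pathway genes, the genes between the class II genes on chromosome 17, and the genes most like them. Genes with a strand or sequence partner (Dexi, H2-Ea-ps) were named after their values were seen. A few genes of the lists are not reported here. Figures used Python 3.11.15 with numpy 2.4.6, pandas 2.3.3 and matplotlib 3.10.9.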

Additional observations from a re-analysis of the deposited data

Results flagged for a closer look

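The in vivo against in vitro log2 fold change differed between the weeks by the interaction contrast of limma, 2 weeks minus 1 week, for 3 of the 8 genes and 2 others named. It was -1.60 for H2-Aa, -1.18 for H2-Eb1 and -1.76 for Cd74. Irf1 had -1.64 (adjusted p = 0.00338), with an in vivo difference of 0.50 at 1 week and -1.14 at 2 weeks. Pecam1, an endothelial adhesion gene, had -1.72 (adjusted p = 0.00683), with 2.96 at 1 week and 1.24 at 2 weeks. H2-Aa, H2-Eb1, Cd74 and Pecam1 were higher in vivo at both weeks, and Irf1 was called lower at 2 weeks alone. None of the 5 differences passed without the intensity trend or without in vivo 1 week replicate 1.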

How the results depend on the processing

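Of 874 alternative values for 48 results on the 8 genes, 799 kept direction and side of the threshold, 51 lost the threshold, 13 gained it and 11 changed sign. H2-Aa, H2-Ab1, H2-Eb1 and Cd74 were higher in vivo at each week under every alternative run. For 56 results on other genes, 951 of 1050 values were unchanged in this sense, 97 lost the threshold, 2 gained it and 0 changed sign. The cause of these changes was not tested.

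The sign changed for Ciita in the difference between weeks (pseudocount of 0.01, -0.35; voom, -0.51; -0.13 to 0.64 with 1 library left out), for H2-DMa there (-0.61 to 0.15 with 1 left out), and for H2-DMb1 at 1 week (no scaling, -0.28; -0.092 to 0.21 with 1 left out) and over both weeks (-0.13 to 0.016 with 1 left out). It changed for Ctss at 2 weeks (no scaling, -0.13; quantile normalization, -0.066) and between weeks in vitro (quantile, -0.23; -0.018 to 0.18 with 1 left out). Ciita could not be fitted at a mean FPKM of at least 1.

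Of all genes, 1503 in place of 2414 changed over both weeks with a pseudocount of 1. For the difference between weeks, the 271 genes became 72 without a filter, 71 without the trend, 473 with voom and 463 with protein-coding genes, and the 3 class II genes became 1 without a filter and 0 without the trend. Leaving out 1 library gave 0 class II genes each time and 2 to 86 of all genes there, 0 to 4 and 11 to 221 (of 342) for time in vivo, and 198 to 555 (of 599) for time in vitro. Without scaling 906 of 2468 changed genes were higher at 1 week, in place of 1224 of 2020, 1029 of 3126 in place of 1417 of 2682 at 2 weeks, and 977 of 2873 in place of 1355 of 2414 over both.

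Same-numbered replicates did not deviate together across genes (r = -0.020 at 1 week, -0.022 at 2 weeks), so numbers were not read as pairs. With the replicate number as a block, 5 class II genes changed at 1 week and 4 at 2 weeks, and the difference between weeks gave 0 class II genes and 27 of all genes.

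With 2 libraries per group, leaving one out rests on 1 library assumed to vary like the others. Depth limited Ciita, with 5 and 6 fragments in vitro at 1 week.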
